A study of Mus musculus with 17 samples.

Results

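The 10 genes described here encode surface proteins commonly used to recognise mesenchymal stromal cells: Thy1, Eng, Nt5e, Ly6a, Cd44, Alcam, Mcam, Pdgfra, Pdgfrb and Cd34. They were chosen by name, as 10 of the 23420 genes in the count table, and each of the 10 had an entry. Earlier results of these data were known when they were chosen, so counts of members called are descriptive. Transcripts of the 10 genes were counted in 17 mouse RNA-seq libraries.

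All cells came from C57BL/6 mice in which the R172H change had been knocked in to the gene of p53, a tumour suppressor, so the starting cells already carried mutant p53 and no wild-type group was analysed here. MSC were 3 libraries of cultured bone marrow mesenchymal stem cells. TL1 and TL2 were 6 first-generation and 4 second-generation lines grown from tumours that arose from MSC. The Mut clones were 2 clones of first-generation tumour line cells, and the KO clones were 2 such clones labelled as p53 knockout. The titles of the MSC, TL1 and TL2 libraries carry a number from 1 to 3, kept here in the library names, and letters separate lines of equal number within a generation. The sources used here do not give the meaning of the number or the line or lines from which the clones came. The tumour lines were cultured on agar with leukaemia inhibitory factor, the MSC in a medium of their own, so culture and cell origin cannot be told apart when tumour lines are compared with MSC.

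Mesenchymal stromal cells have no single defining surface protein and are recognised by a combination of them. Thy1 (CD90), Eng (CD105) and Nt5e (CD73) encode the classic positive set, Cd44, Alcam (CD166) and Mcam (CD146) encode adhesion proteins, and Pdgfra and Pdgfrb encode receptors for platelet-derived growth factors (PDGF). Ly6a encodes Sca-1, used for mouse stromal and haematopoietic progenitors, and Cd34 encodes a sialomucin of haematopoietic progenitors, endothelium and some stromal cells.

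In the mouse genome build GRCm38 with GENCODE M21, Thy1 is at chr9:44043384-44048579 and Mcam at chr9:44134469-44142727, with 85889 bases and 5 protein-coding genes between them. Nt5e is at chr9:88327197-88372092, Eng at chr2:32646595-32682669 and Cd44 at chr2:102811141-102901665. Ly6a is at chr15:74994877-74998031, Alcam at chr16:52248996-52454074, Pdgfra at chr5:75152292-75198215 and Cd34 at chr1:194938819-194961279, while Pdgfrb is on chromosome 18.

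RefSeq (GRCm38.p6) gave promoters for 7 members, the exceptions being Thy1, Ly6a and Pdgfrb. The bases just before the gene start are shown for Eng, which was lower in every tumour line than in any MSC library, for Cd34, which varied most between tumour lines, and for Cd44, which varied least. Eng is read from chr2:32646345-32646594 on the plus strand, Cd34 from chr1:194938571-194938818 on the plus strand and Cd44 from chr2:102901670-102901915 on the minus strand. Each is written 5′ to 3′, stops before the gene start in either RefSeq or GENCODE, and capitals mark matches to an E-box.

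Eng: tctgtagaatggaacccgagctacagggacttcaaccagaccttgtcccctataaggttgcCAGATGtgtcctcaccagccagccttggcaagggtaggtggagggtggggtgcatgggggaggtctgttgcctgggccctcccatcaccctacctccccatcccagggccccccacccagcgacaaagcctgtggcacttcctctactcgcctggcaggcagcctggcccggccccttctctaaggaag
Cd34: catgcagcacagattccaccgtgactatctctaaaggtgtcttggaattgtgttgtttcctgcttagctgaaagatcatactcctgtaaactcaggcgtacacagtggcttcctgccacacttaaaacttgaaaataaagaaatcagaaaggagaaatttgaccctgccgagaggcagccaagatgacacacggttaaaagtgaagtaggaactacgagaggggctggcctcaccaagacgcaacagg
Cd44: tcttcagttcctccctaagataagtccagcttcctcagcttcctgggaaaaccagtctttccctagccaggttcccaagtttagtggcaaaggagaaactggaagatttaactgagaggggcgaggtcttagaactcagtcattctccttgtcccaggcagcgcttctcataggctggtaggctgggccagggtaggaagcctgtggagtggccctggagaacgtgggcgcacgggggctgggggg

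In windows of 250 bases before the RefSeq start, both strands were searched for 4 short motifs that can occur in promoters. The GC box was sought as GGGCGG, the motif of the Sp1 family. The motif of the factor NF-Y was sought as CCAAT. The core promoter element bound by the TATA-binding protein was sought as TATAAA, and the E-box of helix-loop-helix factors as CANNTG. Among 32851 RefSeq promoters of that length, 32.7% held the GC box, 33.8% the NF-Y motif, 12.4% the TATA motif and 66.2% the E-box. Eng, Cd34, Cd44 and Pdgfra held none of the first 3, and their windows contained 4, 6, 5 and 4 CG dinucleotides, against a median of 6 over all promoters. Mcam, Nt5e and Alcam were richer, with 25, 21 and 22 CG dinucleotides and 5, 4 and 2 GC boxes, and Alcam also held the single NF-Y match. By the GENCODE starts, however, the windows of Nt5e and Alcam lie wholly inside the gene, and most of the Mcam window does. For these genes the contrast therefore sets sequence within a gene against sequence before one. The GC content was 62.4% for Eng, 46.4% for Cd34 and 56.4% for Cd44. A match is a run of letters and not a binding site.

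Library totals ranged from 12215025 to 15962341 counts. Levels are CPM, counts relative to a common library total after scaling, and levels of different genes are compared as RPKM, which divides by exon length as well. Changes are on the log2 scale with their standard error (SE), from the quasi-likelihood test of edgeR with Benjamini-Hochberg adjustment over all genes tested, and a gene is called at an adjusted p under 0.05. The labels name no separate animals or cultures for the libraries within a group, so p-values measure the spread between these libraries. In bulk RNA, fewer cells with a transcript and less transcript per cell cannot be told apart. The haematopoietic gene Ptprc had at most 5 counts in any library, and the endothelial genes Emcn and Sox17 had 0 in every library. Other genes of these lists were detected, with up to 497 counts for Cd14, 299 for Cd68 and 293 for Lyz2 among 17 haematopoietic markers, and up to 292 for Flt1, 77 for Egfl7 and 40 for Pecam1 among 11 endothelial markers.

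**Figure D1:**
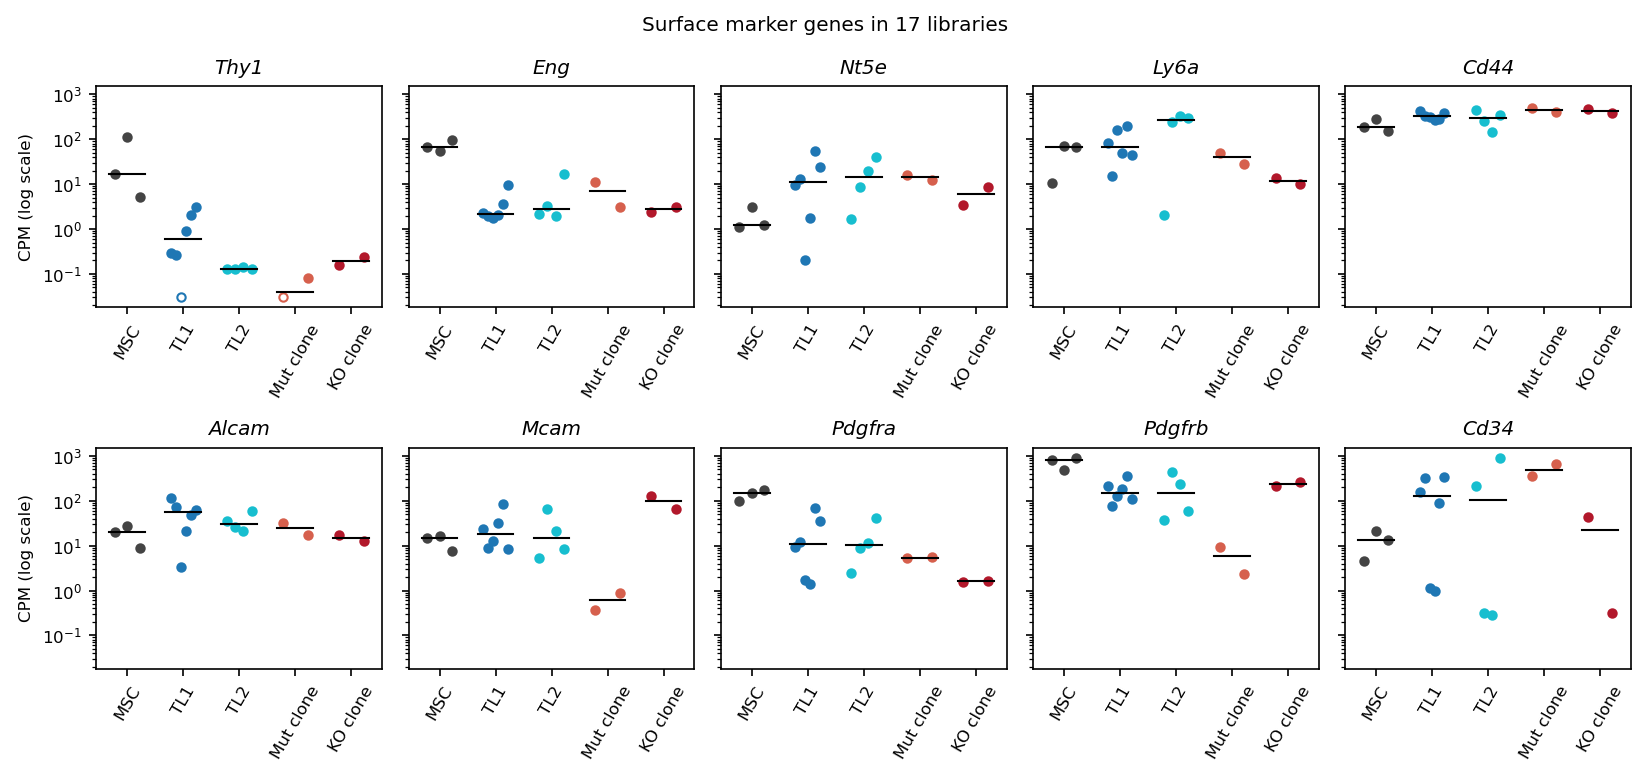
Level of each surface marker gene in each library, as CPM on a logarithmic axis, by group, with the group median as a bar and open circles at the bottom for libraries with 0 counts. Thy1, Eng, Pdgfra and Pdgfrb lie lower in all 10 tumour lines than in any MSC library. Of 9 members tested in the clones, 7 do not overlap between Mut and KO clones, near the 69.7% of all genes. Of those 7, Mcam and Pdgfrb are higher in the KO clones and the rest lower.

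The order of the markers differed between groups when levels were compared per length. In MSC the mean was highest for Pdgfrb, at 135 RPKM, followed by Ly6a at 50.1, Cd44 at 36.8, Thy1 at 23.8, Eng at 20.7 and Pdgfra at 15.9 RPKM. Cd34, Mcam and Alcam followed at 4.95, 4.31 and 2.87 RPKM, and Nt5e was last at 0.448 RPKM, the lowest level of the 10 in these MSC. In the tumour lines Ly6a led with 142 RPKM, followed by Cd34 at 76.9, Cd44 at 56.7 and Pdgfrb at 33.4 RPKM, and Eng and Thy1 came last at 1.29 and 0.380 RPKM. That order of means did not hold in every line. In lines of number 2 Cd34 was at a mean of 0.260 RPKM, above only Thy1. In lines of number 1 Ly6a, at 32.7 RPKM, was below Cd34 and Cd44. Neighbours whose libraries overlapped, such as Thy1 and Eng in MSC, do not differ beyond their spread.

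Tumour lines were compared with MSC to ask which stromal surface genes the tumour-derived cells still transcribed. Thy1 and Eng fell, Pdgfra and Pdgfrb were lower in every line without passing the test, and the other 6 members had a positive change that was not called. With edgeR, 2 of the 10 members were called, both lower, where 8.65% of 13262 genes tested were called, 3.86% higher and 4.79% lower. No library of one group overlapped the other for 4 members, all lower. Over all genes tested 12.6% did not overlap, and 7.53% were lower in every tumour line. The median change of the 10 members was 0.86, beside 0.10 over all genes tested.

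Thy1 encodes a small glycoprotein held to the membrane by a glycosylphosphatidylinositol (GPI) anchor. It stood at 17.2, 112 and 5.09 CPM in MSC 1, 2 and 3, and in the tumour lines at 0 to 3.06 CPM with a median of 0.20. The lowest MSC library was above the highest tumour line, but MSC 2 was far above the other MSC. The change was -6.78 (SE 1.04, adjusted p = 0.00171 with edgeR), and without MSC 2 it was -4.78 (adjusted p = 0.0157). When the tumour lines were summed per number it was -5.95 and no longer called (adjusted p = 0.0556). TL1 2a had 0 Thy1 counts, which allows up to 3, and the 4 TL2 libraries had 2 counts each.

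Eng encodes endoglin, a co-receptor for ligands of the transforming growth factor beta (TGF-beta) family. It stood at 68.0, 55.8 and 97.9 CPM in the MSC libraries and at 1.80 to 17 CPM, median 2.21, in the tumour lines. MSC values lay close together and 8 lines had under 4 CPM, while TL1 3b had 9.79 and TL2 3 had 17 CPM. The change was -3.95 (SE 0.67, adjusted p = 0.00237 with edgeR), and without TL2 3 it was -4.63.

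The PDGF receptors are tyrosine kinases of stromal cells, with Pdgfrb typical of pericytes. Pdgfrb stood at 814, 489 and 917 CPM in MSC, whereas tumour lines ran from 37.8 to 446 CPM with a median of 152. Its change was -1.97 (SE 0.63, adjusted p = 0.0513 with edgeR), just outside the threshold. Pdgfra stood at 98.6, 151 and 170 CPM in MSC, whereas tumour lines ran from 1.43 to 69.6 CPM with a median of 10.4. Its change was -2.87 (SE 0.99, adjusted p = 0.0638 with edgeR). TL1 3a had the highest Pdgfra of the tumour lines, and both receptors were called without it, as they were with DESeq2 and limma-voom. With the tumour lines summed per number, which counts lines of a number once, Pdgfrb was called (adjusted p = 0.0303) and Pdgfra was not (adjusted p = 0.0923).

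The remaining members overlapped between tumour lines and MSC. Nt5e encodes the ectoenzyme that turns extracellular AMP into adenosine, and it was at 1.09, 3.07 and 1.21 CPM in MSC, and the lines ran from 0.20 to 55.6 CPM with a median of 11.4. Its change was 3.33 (SE 1.15, adjusted p = 0.151 with edgeR), and with DESeq2 it was called (adjusted p = 0.0131). Cd34 was at 4.52, 20.9 and 13.3 CPM in MSC, and the lines ran from 0.280 to 876 CPM with a median of 126, with lines on both sides of the MSC range. The Cd34 change of 4.01 (SE 1.75, adjusted p = 0.279 with edgeR) describes neither set of lines. Changes of Ly6a (1.52, SE 0.98), Alcam (1.24, SE 0.69), Mcam (1.08, SE 0.79) and Cd44 (0.64, SE 0.29) had adjusted p of 0.391, 0.309, 0.438 and 0.192 with edgeR. Cd44, the main receptor for hyaluronan, stayed within 147 to 446 CPM in the lines, against 155 to 279 CPM in MSC.

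**Figure D2:**
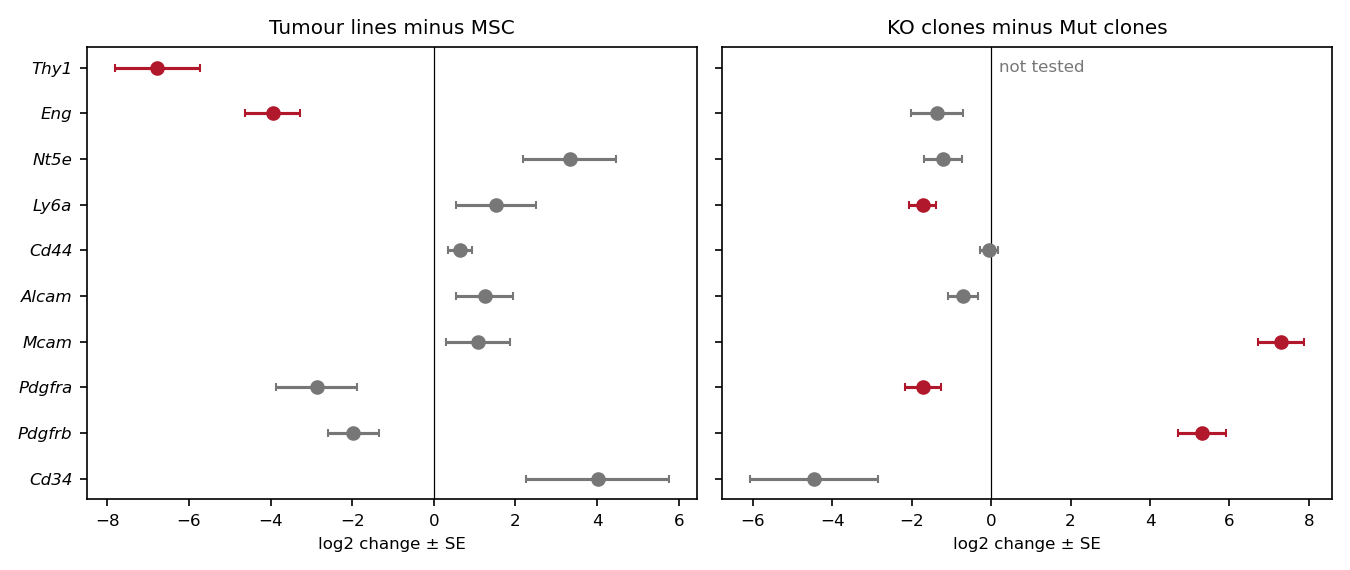
Log2 change of each member with its standard error from edgeR, for tumour lines minus MSC and for KO clones minus Mut clones, with called members in red and others in grey. Thy1 and Eng are called lower in tumour lines, and in the KO clones Mcam and Pdgfrb are called higher and Ly6a and Pdgfra lower.

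Genes that work with the members were counted in the same comparison, where 8.65% of all genes were called. The lists were chosen with earlier results of these data known, so their shares are descriptive and test nothing. The fit counted tumour lines of equal number as separate. Whether the calls of these genes hold with lines summed per number is not given here. The share called was 21.7% of the TGF-beta and BMP list, 17.6% of the hyaluronan list, 13.3% of the PDGF list, 12.5% of the other stromal genes, 9.09% of the adenosine list, 20% of the adhesion genes and 3.85% of the GPI anchor genes. Of 23 genes for TGF-beta and BMP receptors, ligands and regulators, 5 were called lower and none higher, with a median change of -0.70 beside 0.10 over all genes. Tgfbr3, which encodes betaglycan, a co-receptor related to endoglin, fell from 157 ± 30.8 CPM in MSC (SD, n = 3) to 38.5 ± 24.2 in the lines (SD, n = 10). That was a change of -1.99 (SE 0.49, adjusted p = 0.0181 with edgeR), and the ligand gene Tgfb3 fell by 2.07 (SE 0.50) and the inhibitory Smad6 fell by 2.64 (SE 0.52). Acvr1, a BMP type I receptor gene, fell by 1.04 (SE 0.27). The other call was Acvrl1, which encodes ALK1, the receptor that works with endoglin, with a mean of 3.52 CPM in MSC and 0.355 CPM in the lines and a change of -3.63 (SE 0.79, adjusted p = 0.00842).

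Of 17 tested genes for hyaluronan and partners of Cd44, 3 were called lower and none higher. The proteoglycan gene Vcan fell by 2.29 (SE 0.48), Tmem2, which encodes a hyaluronidase of the cell surface, by 1.83 (SE 0.27), and the hyaluronan-binding Tnfaip6 fell by 3.08 (SE 0.81). Cd44 itself was not called. Of 15 genes for PDGF ligands and signalling, the ligand gene Pdgfb rose by 3.59 (SE 0.72, adjusted p = 0.0267 with edgeR) and Pik3r1, a regulatory subunit of PI3 kinase, fell by 1.37 (SE 0.29). Pdgfb thus rose where the receptor genes were lower, from at most 1.62 CPM in MSC to a range of 1.67 to 28.2 CPM in tumour lines.

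Of 24 other stromal genes 3 were called, all lower, namely Cxcl12, a chemokine of marrow stroma (-4.59, SE 0.50), Itga1 (-3.26, SE 0.69) and Itgav (-0.99, SE 0.28). Of 11 tested genes of extracellular adenosine, the nucleoside transporter gene Slc29a2 was called, higher by 1.67 (SE 0.30). Among 15 tested adhesion genes of the immunoglobulin superfamily, Cadm1 was called higher (5.01, SE 1.11) and Pvrl3 (-0.84, SE 0.18) and Bsg (-0.74, SE 0.19) lower. Cadm1 was just inside the threshold (adjusted p = 0.0475 with edgeR). Tumour lines and MSC overlapped for Itgav, Cadm1 and Bsg. One of 26 genes for GPI anchor synthesis was called, Pigf, higher by 1.02 (SE 0.20), and the list's median was -0.05, although Thy1, Nt5e and Ly6a all encode proteins with that anchor. None of the 4 tested Ly6 genes was called.

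Some markers of pericytes and smooth muscle were lower beside the PDGF receptors, and their part in that result was not tested. Of 9 tested, 2 were called lower and none higher, and 4 had a positive change. The summed level of the 10 listed genes was 4644 to 8016 CPM in MSC, against 214 to 2580 CPM in tumour lines. Acta2 and Tagln, which encode contractile proteins, changed by -3.29 (SE 0.58) and -3.71 (SE 0.70), and these genes carry most of that sum in MSC. Others reached higher levels in some tumour lines than in any MSC library, with a highest value of 1538 against 62.4 CPM for Des, 171 against 31.4 CPM for Notch3, 26.7 against 5.69 CPM for Cspg4 and 13.2 against 0.418 CPM for Rgs5. Of 7 tested haematopoietic markers, Cd14 was called higher (2.32, SE 0.35) and 2 genes at low level, Fcer1g and H2-Ab1, were called lower, and the 17 listed genes summed to 17.2 to 42.6 CPM in MSC, against 15.6 to 63.2 CPM in the lines.

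First-generation and second-generation lines were compared to ask whether the markers changed on further passage through a tumour. None of the 10 members was called, where 0% of 13262 genes tested were called with edgeR, 246 had an unadjusted p under 0.05, and DESeq2 called 3 genes and limma-voom 0. The fit did not pair lines by the number in their titles, and with that number as a replicate block edgeR also called 0 genes. All member changes had an adjusted p of 1.00. Thy1 had the largest size, -2.97 (SE 1.25), from a median of 0.60 CPM in TL1 to 0.130 CPM in TL2, but at very low counts. The 4 TL2 libraries had 2 Thy1 counts each, TL1 3a and 3b had 30 and 41, and the other TL1 lines at most 12. Thy1 passed the count filter of this fit, which includes the MSC, but not that of a fit of the tumour lines alone. No member had groups that did not overlap, where 0.136% of genes did. Ly6a was at 243, 334 and 299 CPM in TL2 2a, 2b and 3 and at 2.10 CPM in TL2 1, while the 6 TL1 lines ran from 14.8 to 198 CPM.

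The tumour lines were also compared by the number in their titles, a comparison added after the values were seen. Over the 10 lines the SD of log2 CPM was 4.48 for Cd34, higher than in 99.96% of 10558 genes averaging 5 CPM or more, and 2.30 for Nt5e and 2.27 for Ly6a. For Cd44 it was 0.47, beside a median of 0.44 over those genes. A test of the number in edgeR, with the generation as a covariate, called 1.79% of 12611 genes and 1 of the 9 members tested.

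That member was Cd34 (adjusted p = 0.00919 with edgeR). It stood at 161 and 329 CPM in TL1 1a and 1b and 210.4 CPM in TL2 1, and at 91.1, 338 and 876 CPM in TL1 3a, TL1 3b and TL2 3. In the lines of number 2 it was 1.14 and 0.977 CPM in TL1 2a and 2b and 0.324 and 0.280 CPM in TL2 2a and 2b. All 4 lines of number 2 were therefore below every other line and below every MSC library, and the other 6 lines were above every MSC library. In 3.60% of genes all lines of number 2 were lower than the others.

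Lines of number 3 had the highest Eng, Pdgfra and Nt5e. Eng was at 3.67, 9.79 and 17 CPM in TL1 3a, TL1 3b and TL2 3 and at no more than 3.30 CPM in the other 7 lines. Pdgfra was at 69.6, 35.3 and 41.4 CPM there and at no more than 11.8 CPM elsewhere, and Nt5e at 55.6, 23.5 and 41.1 CPM against no more than 19.9 CPM. In 5.31% of genes all lines of number 3 were higher than the others. The test of the number gave adjusted p of 0.0550 for Eng, 0.0897 for Pdgfra and 0.254 for Nt5e with edgeR. Eng was called as well when TL1 3a was left out.

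**Figure D3:**
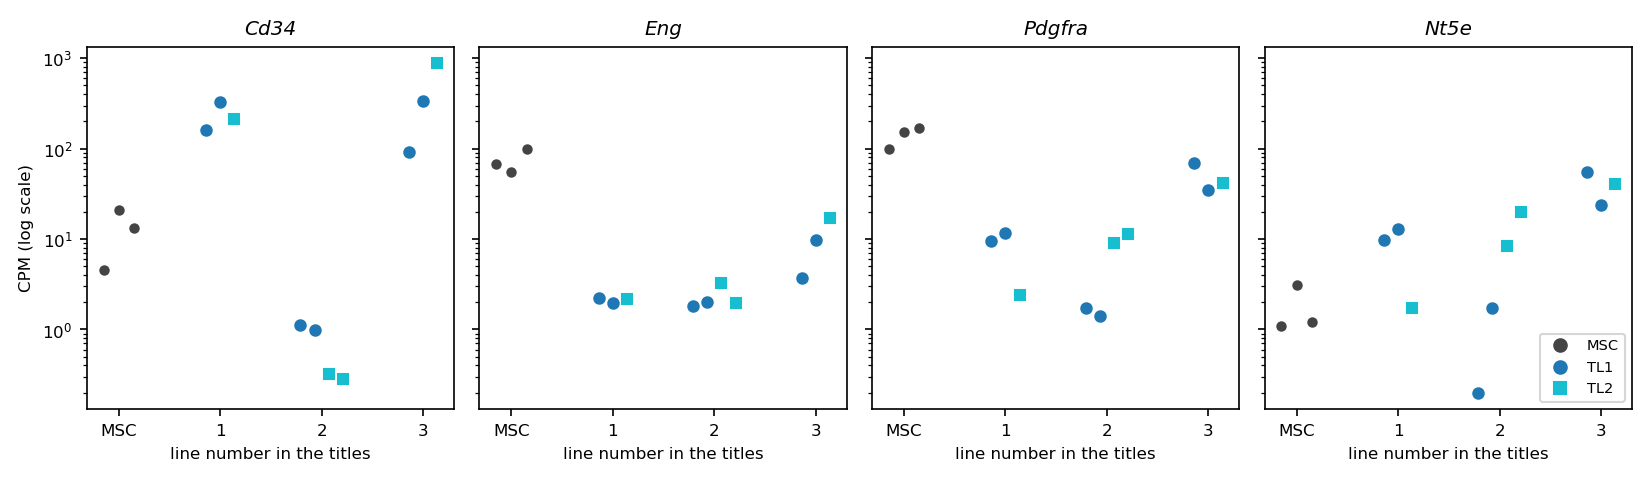
Level of Cd34, Eng, Pdgfra and Nt5e in MSC and in tumour lines by the number in the titles, as CPM on a logarithmic axis, with circles for MSC and TL1 and squares for TL2. Cd34 lies at 1.14 CPM or less in the 4 lines of number 2 and at 91.1 CPM or more in the others, and the lines of number 3 are highest for the other genes.

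The balance of the PDGF receptors also differed between lines, though lines of numbers 1 and 2 overlapped. Pdgfrb itself overlapped between all the numbers (adjusted p = 0.484 for the number with edgeR). Per length, the ratio of Pdgfrb to Pdgfra was 13.2, 5.18 and 8.65 in the MSC libraries. In lines of number 2 it was 33.4 to 199.97, in lines of number 1 it was 10.4 to 35.8, and in lines of number 3 it was 2.26 to 8.04. The ligand gene Pdgfd, whose product acts on Pdgfrb, was at 129 to 382 CPM in the lines of number 2. It was at 17.8 to 89.5 CPM in those of number 1 and at 1.73 to 11.9 CPM in those of number 3. The ratio was not tested.

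**Figure D4:**
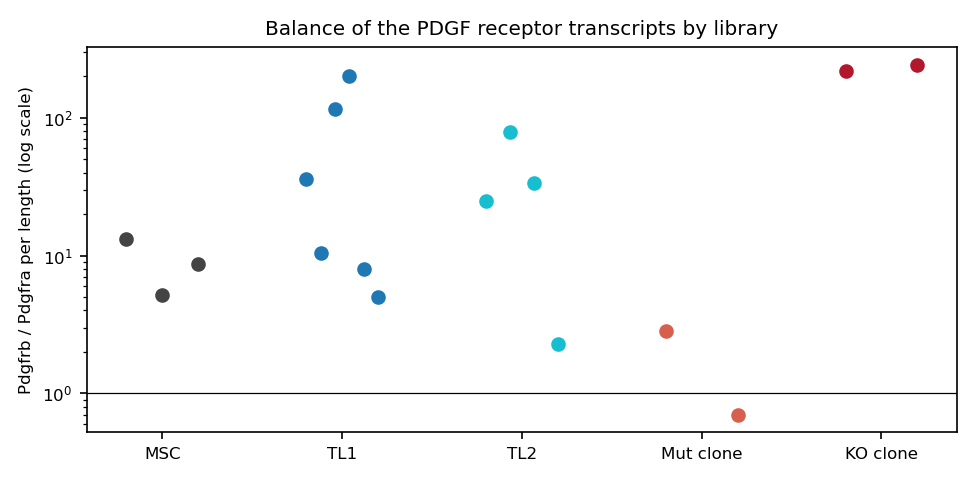
Ratio of Pdgfrb to Pdgfra per length in each library, on a logarithmic axis, by group, with a line at equal levels. The ratio is 218 and 244 in the KO clones and 2.81 and 0.696 in the Mut clones, with MSC between 5.18 and 13.2.

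The KO clones were compared with the Mut clones. With 2 clones against 2 of unknown line of origin, knockout cannot be told apart from differences between clones or their lines. For the clones, rose and fell below mean higher and lower in the KO clones. Trp53, the targeted gene, was at 358 and 280 CPM in the Mut clones and at 80.8 and 89.6 CPM in the KO clones, a change of -1.89 (SE 0.22, adjusted p = 0.00259 with edgeR). In the MSC it was 197 to 263 CPM. Mcam and Pdgfrb were higher in the KO clones and Ly6a and Pdgfra lower. With edgeR 4 of the 9 members tested were called, where 26.1% of 12238 genes were called, 14.2% higher and 12% lower. Groups did not overlap for 7 of these 9 members, near the 69.7% of all genes, and with 2 clones against 2 each group rests on its clones.

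Mcam encodes an adhesion protein of pericytes, endothelium and stromal progenitors. It was at 0.362 and 0.876 CPM in Mut clones 1 and 2 and at 129 and 65.2 CPM in KO clones 1 and 2. KO clone 1 was above every other library, and both Mut clones lay below every library outside their group. The change was 7.31 (SE 0.58, adjusted p = 0.000683 with edgeR), 8.03 without Mut clone 2 and 6.73 without KO clone 1. Its neighbour Thy1 had 0 and 1 counts in the Mut clones and 2 and 3 counts in the KO clones, too few to test.

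Pdgfrb was at 9.42 and 2.39 CPM in the Mut clones and at 214 and 255 CPM in the KO clones. Both Mut clones lay below every library outside their group, while the KO clones lay within the range of the tumour lines. The change was 5.31 (SE 0.60, adjusted p = 0.00778 with edgeR), 6.63 without Mut clone 1 and 4.64 without Mut clone 2. Pdgfra went the other way, from 5.36 and 5.49 CPM to 1.57 and 1.67 CPM, a change of -1.72 (SE 0.45, adjusted p = 0.0360). That call was lost without any one of the 4 clones (adjusted p from 0.123 to 0.138) and when all 17 libraries were fitted together (adjusted p = 0.494).

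Ly6a was at 50.3 and 28.3 CPM in the Mut clones and at 13.4 and 10.1 CPM in the KO clones, a change of -1.73 (SE 0.35, adjusted p = 0.0166 with edgeR). The call was lost without Mut clone 1 (adjusted p = 0.0773), without KO clone 1 (adjusted p = 0.0608), without KO clone 2 (adjusted p = 0.105) and with all 17 libraries fitted together (adjusted p = 0.463). Cd34 was at 348 and 643 CPM in the Mut clones, at 44.1 CPM in KO clone 1 and at 0.319 CPM in KO clone 2. Both KO clones were lower than both Mut clones, but they differed so much from each other that the change of -4.46 (SE 1.61) was not called (adjusted p = 0.155 with edgeR). It was called without KO clone 1 (-10.54) and without KO clone 2 (-3.47).

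Eng, at 11.2 and 3.10 CPM in the Mut clones and 2.44 and 3.03 CPM in the KO clones, had a change of -1.37 (SE 0.66, adjusted p = 0.171 with edgeR). Nt5e, at 15.7 and 12.6 against 3.46 and 8.53 CPM, had a change of -1.22 (SE 0.48, adjusted p = 0.110). Alcam, at 32.7 and 17.1 against 17.7 and 12.4 CPM, had a change of -0.71 (SE 0.39, adjusted p = 0.215). Cd44 was at 500 and 399 CPM in the Mut clones and 467 and 387 CPM in the KO clones, with a 95% interval of the change from -0.59 to 0.48. The median change of the 9 members was -1.22, beside 0.005 over all genes.

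Some markers of pericytes and smooth muscle were higher in the KO clones, as Mcam and Pdgfrb were, and their part in that result was not tested. The 10 listed genes summed to 4.38 to 31.9 CPM in the Mut clones and 3930 to 8646 CPM in the KO clones. Most of the sum in the KO clones was Acta2, Tagln and Des. Of the 6 tested, 5 were called higher and none lower, where 26.1% of all genes were called. The 5 were Acta2, Tagln, Des, Notch3 and Cspg4. The pericyte gene Rgs5, too low to test, went the other way, at 0.239 to 0.725 CPM in the Mut clones and at most 0.0787 CPM in the KO clones. Acta2 was at a mean of 13.4 ± 16.7 CPM in the Mut clones and 4549 ± 2986 in the KO clones (SD, n = 2 each). In the tumour lines Acta2 ran from 148 to 1025 CPM, above both Mut clones and below both KO clones. Notch3, a receptor of mural cells, rose by 6.55 (SE 0.32), and Des, the muscle filament gene, stood at means of 0.333 and 812 CPM. The endothelial list summed to 13.5 to 24.2 CPM in the Mut clones and 1.34 to 5.18 in the KO clones, and the haematopoietic list to 13.5 to 18.4 and 7.24 to 7.49 CPM. Flt1, a VEGF receptor gene called lower, made up most of the endothelial difference, at means of 12.7 CPM in the Mut clones and 0.0394 CPM in the KO clones. Among haematopoietic markers Cd14 was called lower (-1.95, SE 0.51) and Csf1r higher (3.04, SE 0.81).

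Counts of partner genes, from the same lists and likewise only descriptive, are given beside the 26.1% of all genes called in the clones. Called in either direction were 26.7% of the PDGF list, 40.9% of the TGF-beta and BMP list, 15.4% of the hyaluronan list, 55.6% of the adenosine list, 42.9% of the other stromal genes, 41.7% of the adhesion genes and 15.4% of the GPI anchor genes. In the PDGF list, 4 of 15 ligand and signalling genes were called higher in the KO clones and none lower, with a median change of 0.60. Pdgfd rose by 5.07 (SE 0.82) and Nrp1, which encodes neuropilin, a co-receptor, by 5.23 (SE 0.29). Gab1 and Plcg1, which encode signal transducers downstream of receptor tyrosine kinases, rose by 1.29 (SE 0.28) and 1.08 (SE 0.22). Of 22 tested TGF-beta and BMP genes, 8 were called higher and 1 lower. The ligand genes Tgfb2 and Bmp4 rose by 3.26 (SE 0.42) and 7.26 (SE 1.15), and Tgfbr3 fell by 3.06 (SE 0.38). Of 13 tested hyaluronan and Cd44 partner genes, Has2, a hyaluronan synthase gene, was called higher (5.77, SE 0.37) and Ezr, which encodes ezrin, lower (-2.17, SE 0.20).

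Of 9 tested genes of extracellular adenosine, 5 were called higher and none lower, among them the deaminase gene Ada (2.48, SE 0.43), the transporter gene Slc29a1 (1.10, SE 0.21) and the kinase gene Adk (1.10, SE 0.21). The other calls were the adenosine receptor genes Adora1 (3.96, SE 0.80) and Adora2b (2.29, SE 0.61). Ada, Slc29a1 and Adk encode proteins that carry or consume adenosine, whereas Nt5e encodes the enzyme that forms it. Of 21 other stromal genes tested, 7 were called higher and 2 lower. Nes, the gene of nestin, rose by 3.42 (SE 0.22), Cxcl12 rose by 4.85 (SE 0.59) and Bst2 fell by 5.22 (SE 0.60). Kitl was the other gene called lower, and Cd200 stood at means of 0.0725 CPM in the Mut clones and 370 CPM in the KO clones.

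Adhesion genes of the immunoglobulin superfamily, the family of Alcam and Mcam, gave 4 higher and 1 lower call among 12 tested. Ncam1 rose by 2.50 (SE 0.20), Jam2 by 4.73 (SE 0.53) and Pvrl3 by 0.86 (SE 0.22), Jam3 fell by 1.22 (SE 0.27), and Cadm1 had 0 counts in both Mut clones and 44.5 ± 5.31 CPM in the KO clones (SD, n = 2). The 26 GPI anchor genes gave 2 calls in each direction, with Pigp (1.36, SE 0.26) and Pigx (0.86, SE 0.25) higher and Pigm (-1.16, SE 0.27) and Pign (-1.15, SE 0.25) lower.

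Ly6a has close relatives on chromosome 15, and 14.1% of its 60-base windows also occur in transcripts of other genes, among them Ly6c1 and Ly6i, so its counts are uncertain. The share of its reads this concerns was not measured. Ly6c1 followed Ly6a from library to library. In TL2 1, where Ly6a was lowest, Ly6c1 was at 0.985 CPM, and in TL2 2b, where Ly6a was highest, it was at 176 CPM. In the clones Ly6c1 fell by 2.56 (SE 0.46, adjusted p = 0.0119 with edgeR) and Ly6e by 2.51 (SE 0.59, adjusted p = 0.0429), the only calls among 4 tested Ly6 genes. Ly6i stayed at or below 1.33 CPM in every library. Shares for the other members were 4.49% for Pdgfra, where an antisense transcript overlaps its exons, 1.43% for Cd34, likewise with an antisense gene, and under 0.1% elsewhere.

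**Figure D5:**
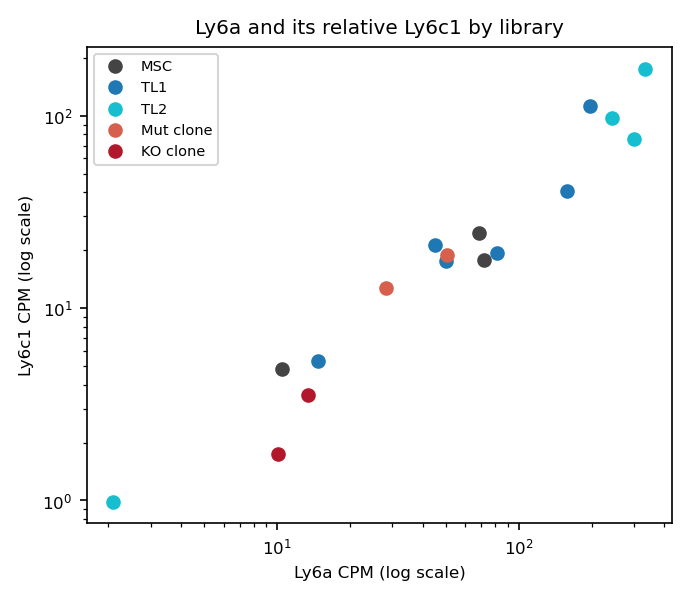
Level of Ly6c1 against that of Ly6a in each of the 17 libraries, as CPM on logarithmic axes, coloured by group. The points run from TL2 1 at 2.10 CPM of Ly6a and 0.985 CPM of Ly6c1 to TL2 2b at 334 and 176 CPM.

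For each member whose log2 CPM had an SD above 1 over the 17 libraries, the genes with the most similar pattern were sought among 10149 genes, by the mean absolute difference of centred log2 CPM. Ly6c1 was nearest to Ly6a at 0.39, which shared reads can affect, followed by Ptgs2 at 0.93 and Etl4 at 1.03. Nearest to Thy1 were Rian (0.88), Cdh11 (1.00) and Eya2 (1.05), and nearest to Eng were Jag1 (0.64), Ebf1 (0.70) and Fgf7 (0.80). Pdgfrb was followed most closely by Creb3l1 (0.62), Fzd1 (0.64) and Rasl12 (0.64), and Pdgfra by Ptgfr (0.69), Emilin2 (0.74) and Col3a1 (0.80). Alcam had Flrt2 (0.45), Lrrk2 (0.48) and Lamb1 (0.51), Mcam had Atp2b4 (0.72), Dact1 (0.73) and Tmem38a (0.73), and Nt5e had Abca8b (0.67), Etv1 (0.90) and Pitpnc1 (0.95). Nearest to Cd34 were Gpr149 (1.504), Arhgap6 (1.84) and Lxn (1.92), beside a mean absolute deviation of 3.49 for Cd34 itself. That deviation was 2.09 for Thy1 and 0.908 for Alcam. The differences grow with a member's own spread, so their sizes do not rank the members by how closely another gene followed them. No p is attached to these likenesses, and libraries of a group share their origin.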

How the data were processed

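RNA of 17 libraries was sequenced single-end at 60 bases, per the labels' protocols. The submitters' processing notes name cutadapt, TopHat2 2.0.10, HTSeq 0.6.1p1, DESeq2 1.6.3 and the build mm10; no source used here gives their role and order, the annotation or the strand setting, so antisense reads cannot be told apart. The authors deposited raw counts per gene; 4 value columns match no sample and were used in no step.

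From these counts, CPM were computed on TMM-scaled library sizes, and RPKM with merged exon lengths of GENCODE M21. Tests used edgeR 4.0.16 (filterByExpr, robust quasi-likelihood, Benjamini-Hochberg) in R 4.3.3, with tumour lines (TL1 and TL2 averaged) against MSC and TL2 against TL1 in 1 fit of 13 libraries, and the clones fitted alone. DESeq2 1.42.0, limma-voom of limma 3.58.1 (log2 CPM), other scalings, filters and fits, and leaving out each library were the alternatives. The steps were tested on simulated data.

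The members and the 12 gene lists (198 genes, 197 with an entry, 1 of them under an older symbol) were chosen with earlier results of these data known. Named genes are the members, Trp53, up to 4 called genes per list with a mean of at least 10 CPM, and the 3 genes most like each varying member. Acvrl1, Fcer1g, H2-Ab1, Cspg4, Rgs5, Adora1, Adora2b, Kitl, Csf1r, Ptprc, Emcn, Sox17, Cd68, Lyz2, Egfl7, Pecam1 and Ly6i, and Pvrl3 in the clones, fall outside that rule and were named after their values were seen, as were Des, Notch3, Pdgfd and Flt1 in the tumour lines and Ly6c1 by library. A gene that the rule takes is not reported here, though counts over lists include it. No 2 libraries of a group were as alike as sampling noise. Deviations of TL1 and TL2 from their group means correlated within the numbers 1, 2 and 3 at r = 0.477, 0.375 and 0.490 over genes. This was taken as a pairing of TL1 with TL2. The main fit did not use that pairing and counted the 10 lines as separate, so its standard errors and p-values may be too small. For MSC the range of r was -0.032 to 0.201, and no pairing was taken.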

Additional observations from a re-analysis of the deposited data

Results flagged for a closer look

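Ly6a in TL2 1 stood at 2.10 CPM, far below the other second-generation lines, with a gap to the next library of 0.936 of the group's whole range on the log2 scale, against a critical value of 0.829 for 4 samples. It was the only one of 20 groups tested for a sample far from the others (10 members in TL1 and in TL2), and chance flags about 1 in 20 such groups.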

How the results depend on the processing

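Of the tumour line and MSC comparison, 1147 genes were called, 2208 with DESeq2 and 304 to 1532 with 1 library left out (349 without MSC 1, 687 without MSC 2, 304 without MSC 3). Members called were 2, and 5 with DESeq2, 4 with limma-voom, 4 with all 17 libraries in one fit and 2 to 4 with 1 library left out. Eng was called under every alternative run and Thy1 under all but the sum per number. The split of calls was 512 higher and 635 lower, and 680 and 547 on library totals. With the line number as a replicate block, which pairs no MSC by the check above, 4 members were called, Pdgfra (adjusted p = 0.00703) and Pdgfrb (adjusted p = 0.0449) among them, and Cd34 reversed to -1.60. Summed per number, 2 were called, Eng and Pdgfrb.

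In TL2 minus TL1, 3 genes were called with DESeq2; the block left both counts at 0. Reversed values were -0.0091 for Nt5e on library totals, 0.12 (limma-voom) and 0.15 (replicate block) for Pdgfra, -0.32 and -0.21 for Pdgfrb, and -1.51 for Cd34 with limma-voom. With 1 library left out, changes ran from -0.54 to 1.38 for Eng, -0.81 to 0.89 for Nt5e, -0.42 to 0.072 for Cd44, -1.30 to 0.56 for Mcam, -1.52 to 0.43 for Pdgfra, -0.66 to 0.49 for Pdgfrb and -1.14 to 1.25 for Cd34.

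In the clones, 3200 genes were called, 820 in the fit of all 17 libraries and 1347 to 1755 with 1 clone left out, where the lone clone is assumed to vary like the others. Members called were 4, then 2 and 2 to 3; Cd44 ran from -0.23 to 0.12. Library totals moved the median of all genes from 0.005 to -0.130 and the split from 1734 higher and 1466 lower to 1472 and 1816. The line number called 226 genes, 1893 with DESeq2, 413 without the filter and 28 to 269 with 1 line left out (28 without TL2 3); members were 1, 4 with DESeq2 and 1 to 2, with Cd34 called each time. Unless stated above, the cause of a difference was not tested. Depth limits Thy1, at 3 counts or fewer in the clones.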
